A study of Mus musculus with 9 samples.

Results

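The 6 genes described here encode the lectin chaperones calnexin (Canx) and calreticulin (Calr) and the disulfide isomerases P4hb, Pdia3, Pdia4 and Pdia6 of the endoplasmic reticulum (ER). XBP1 chromatin immunoprecipitation and sequencing of mouse liver gave 8 lists of called regions (peaks), and a peak was assigned to a gene where its midpoint lay in a fixed mm9 window around that gene. The windows held 97 peaks of the 8 lists. Merging of overlapping peaks gave 19 sites out of 28177 merged regions in all lists. The windows covered chromosome 11 from 50100001 to 50150000 (Canx), chromosome 8 from 87355001 to 87380000 (Calr) and chromosome 11 from 120415001 to 120442000 (P4hb). They also covered chromosome 2 from 121230001 to 121275000 (Pdia3), chromosome 6 from 47735001 to 47775000 (Pdia4) and chromosome 12 from 17263001 to 17300000 (Pdia6).

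In the ER, newly made glycoproteins carry a sugar tree whose trimmed form is bound by calnexin, which is anchored in the membrane, and by calreticulin, its soluble relative. Both hold the glycoprotein while the partner enzyme Pdia3 (ERp57) forms and rearranges its disulfide bonds. P4hb is the classical protein disulfide isomerase and also a subunit of collagen prolyl hydroxylase, and Pdia4 (ERp72) and Pdia6 (P5) are further oxidoreductases of the same thioredoxin-fold family. XBP1 is a transcription factor that becomes active when the ER stress sensor IRE1 splices its messenger RNA, and genes for ER folding enzymes are among its classical targets. Hepatocytes secrete most plasma proteins and depend heavily on this folding machinery.

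All libraries came from livers of wild-type C57Bl6-J mice, and XBP1 was precipitated with the antibody M-186. The unsilenced livers were basal, 6 h or 48 h after removal of most of the liver (partial hepatectomy, PH), and 6 h or 48 h after a sham operation. Surgery was done at 8 weeks of age, per the labels' protocols. In the silenced livers an adenovirus constitutively expressing a short hairpin RNA against Xbp1 (shXBP1) had been injected into the tail vein 7 days earlier, with clodronate liposomes 24 h before the virus. Of the 3 silenced livers, 1 was otherwise basal, and the other two had hepatectomy 6 h or 48 h before sampling. The protocols name a control virus against LacZ, but the labels leave unsaid whether any unsilenced liver got it and how many animals made up a library. Each condition had 1 library, so the spread between animals is unknown and no test was made. Read depth per library was not given in the sources used here, and the number of peaks per list ran from 102 to 23087. The basal input library was not used here. A peak in a silenced liver may hold residual XBP1 or another signal, which cannot be told apart.

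XBP1 is known to bind, together with the CCAAT-binding factor NF-Y, the ER stress response element of chaperone gene promoters, which joins the letters CCAAT and CCACG across a spacer of 9 bases. All 6 genes had 1 entry in RefSeq's promoter table (GRCm38.p6), with gene IDs 12330 (Canx), 12317 (Calr), 18453 (P4hb), 14827 (Pdia3), 12304 (Pdia4) and 71853 (Pdia6). The sequences below are the 250 bases before each annotated start, 5′ to 3′, and capitals mark CCAAT and CCACG on either strand (ATTGG and CGTGG in reverse). Their positions are in GRCm38 and cannot be set against the mm9 positions of the peaks.
Canx (chr11:50325674-50325923, minus strand): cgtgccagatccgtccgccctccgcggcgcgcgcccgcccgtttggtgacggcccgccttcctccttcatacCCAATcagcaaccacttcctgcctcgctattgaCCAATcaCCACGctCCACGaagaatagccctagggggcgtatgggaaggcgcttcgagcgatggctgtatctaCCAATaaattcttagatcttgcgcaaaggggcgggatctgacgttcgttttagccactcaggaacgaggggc
Calr (chr8:84846932-84847181, minus strand): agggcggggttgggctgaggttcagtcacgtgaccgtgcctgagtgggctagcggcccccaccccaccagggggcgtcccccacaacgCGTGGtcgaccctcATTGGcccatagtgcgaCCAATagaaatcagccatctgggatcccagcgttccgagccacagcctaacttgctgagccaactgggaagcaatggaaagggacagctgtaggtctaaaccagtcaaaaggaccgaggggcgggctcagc
P4hb (chr11:120573254-120573503, minus strand): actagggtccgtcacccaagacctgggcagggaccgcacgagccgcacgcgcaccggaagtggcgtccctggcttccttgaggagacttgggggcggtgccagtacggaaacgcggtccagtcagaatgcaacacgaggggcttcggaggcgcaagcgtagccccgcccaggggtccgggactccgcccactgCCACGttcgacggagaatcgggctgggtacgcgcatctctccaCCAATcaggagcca
Pdia3 (chr2:121413652-121413901, plus strand): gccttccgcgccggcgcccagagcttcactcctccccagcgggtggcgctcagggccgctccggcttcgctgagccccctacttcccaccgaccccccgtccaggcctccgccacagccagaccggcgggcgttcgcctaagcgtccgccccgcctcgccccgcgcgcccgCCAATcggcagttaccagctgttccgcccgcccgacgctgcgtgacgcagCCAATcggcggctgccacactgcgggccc
Pdia4 (chr6:47813513-47813762, minus strand): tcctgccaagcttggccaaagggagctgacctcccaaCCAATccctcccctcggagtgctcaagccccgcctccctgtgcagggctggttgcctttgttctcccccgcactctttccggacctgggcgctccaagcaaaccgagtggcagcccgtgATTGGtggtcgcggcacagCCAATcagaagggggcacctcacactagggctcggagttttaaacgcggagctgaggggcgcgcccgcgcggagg
Pdia6 (chr12:17266339-17266588, plus strand): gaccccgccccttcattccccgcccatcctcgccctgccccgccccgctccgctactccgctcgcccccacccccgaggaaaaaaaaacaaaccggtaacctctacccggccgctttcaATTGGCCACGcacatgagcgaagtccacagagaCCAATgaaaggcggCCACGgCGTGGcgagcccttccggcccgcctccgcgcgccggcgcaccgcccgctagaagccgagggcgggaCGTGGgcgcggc

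The full element, with exactly 9 bases between CCAAT and CCACG, was found in 3 of the 6 promoters, those of Canx, Calr and Pdia6. It began 145 bases before the start in Canx and 98 bases before it in Pdia6, both on the gene's own strand. In Calr it ran on the reverse strand from 162 bases before the start. Of all 32851 promoter entries of the same length, 37 (0.113%) held it. In Pdia3 and Pdia4 the same spacing was present with CCAC but without the final letter of CCACG. They began 29 bases before the start in Pdia3, on the gene's own strand, and 107 bases before it in Pdia4, on the reverse strand. This shorter form, which contains the full one and was looked for only after the sequences had been seen, was held by 5 of the 6 promoters and 0.32% of all entries. P4hb had both CCAAT and CCACG in its 250 bases but not at this spacing.

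Shorter and alternative letters were counted as well. CCAAT was found in 6 of 6 (33.8% of all entries), CCACG in 4 of 6 (28.3%) and ACGTG in 3 of 6 (16.6%), all counted on both strands, and these short letters overlap the longer element. ATTGG and CCACG separated by 1 base (0.0304% of entries), TGACGTGG (0.563%) and TGACGTGA (0.35%) were in none of the 6. Of 25 other genes of ER glycoprotein folding and disulfide formation, 20 had an entry, and 1 of these, the oxidase gene Ero1b, held the full element. Of the same 20, 2 held TGACGTGG (Txndc5 and Txndc11) and 1 held TGACGTGA (Mogs, a glucosidase that starts the trimming of the sugar tree). The short letters were common in these 20 as well, with ACGTG in 12, CCACG in 11 and CCAAT in 11.

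Every window held an XBP1 peak in each of the 5 unsilenced lists. The share of genome tiles of 37333 bp, the mean window length, that held a peak was 3.23% in basal liver, 17.5% 6 h after hepatectomy and 8.01% 48 h after it. It was 17.9% at 6 h and 5.51% at 48 h after the sham operation. The tiles were not matched for genes, while each window was placed around a gene. Among the silenced lists, 6 of 6 windows held a peak in basal liver (0.176% of tiles) and 6 h after hepatectomy (5.29% of tiles). In the silenced 48 h list 4 of 6 did (0.122% of tiles), and the windows of Pdia3 and Pdia4 held none. By list, the windows held 9 peaks in basal liver, 19 and 14 at 6 h and 48 h after hepatectomy, and 18 and 11 at 6 h and 48 h after the sham operation. The silenced lists placed 10 peaks there in basal liver, 10 at 6 h and 6 at 48 h.

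**Figure D1:**
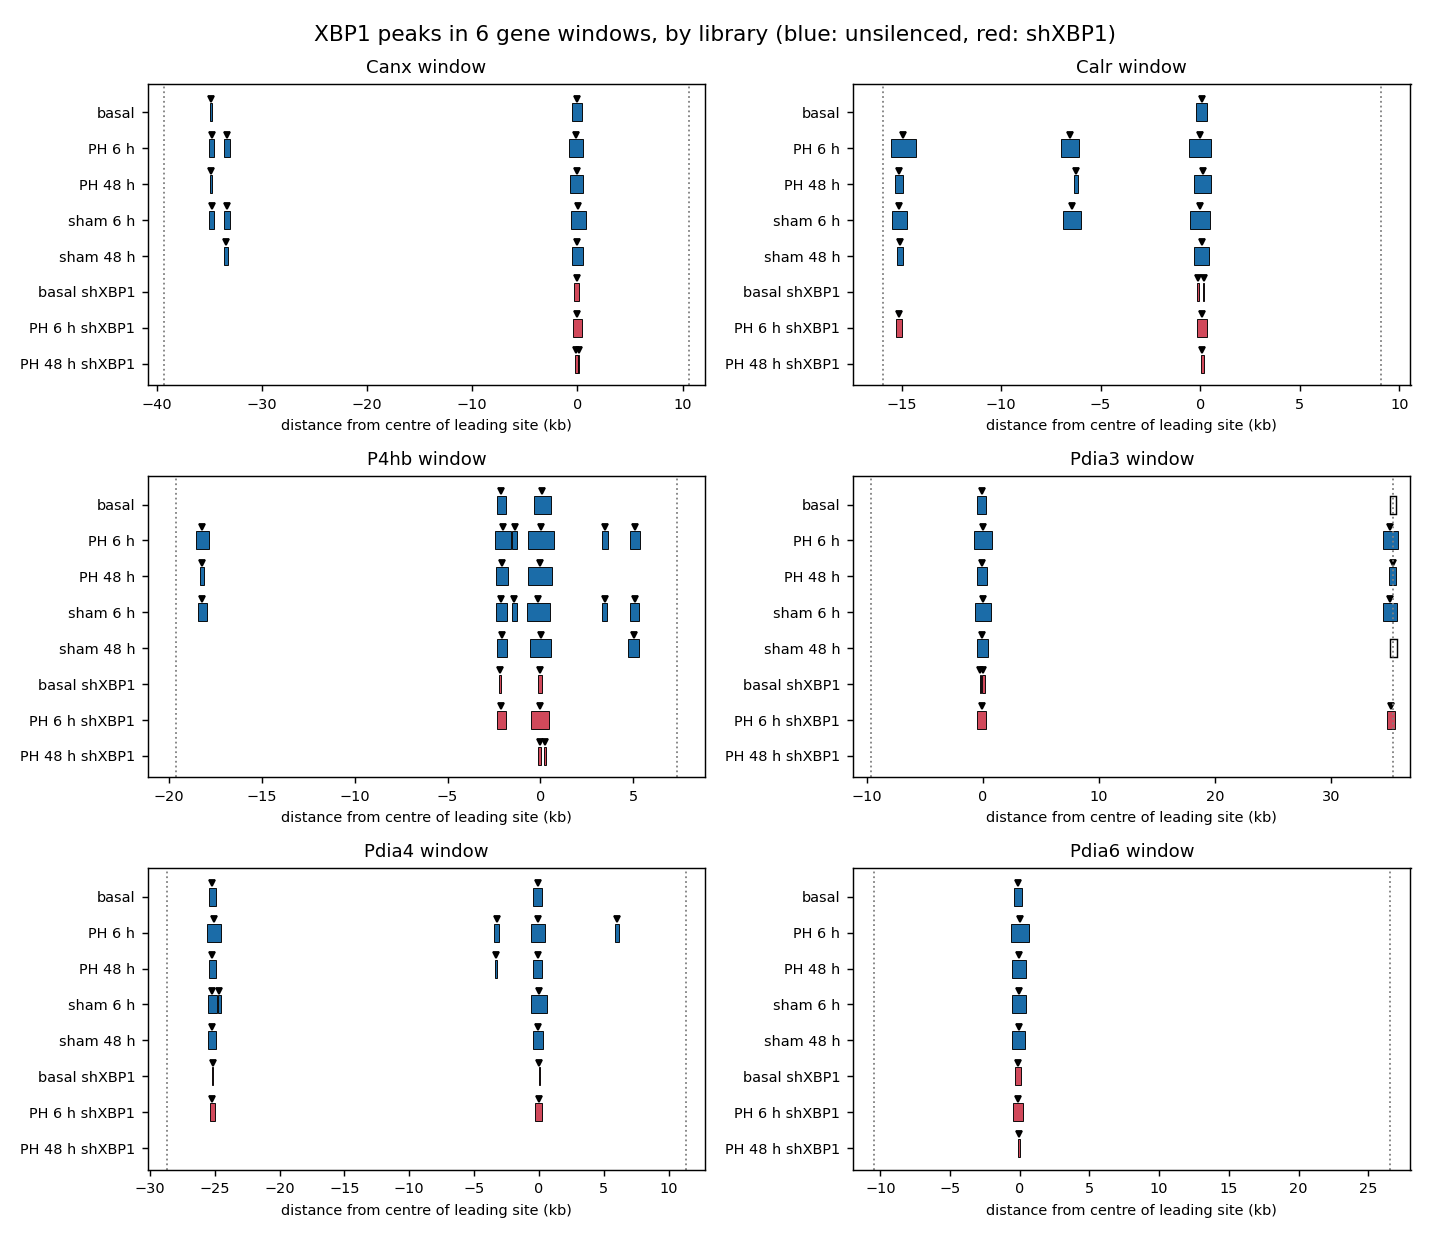
Peaks in the 6 gene windows, 1 panel per gene and 1 row per library, plotted by distance from the centre of the leading site in kb. Bars span each peak, triangles mark midpoints, dotted lines are the window edges, and open bars are peaks of the same site whose midpoint lies outside. The leading site carries a peak in every library except for Pdia3 and Pdia4 in the silenced 48 h library.

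In each window 1 site led, defined as the site with a peak in the most lists and, in a tie, the higher score 6 h after hepatectomy. The score is the authors' value per peak, taken as −log10 of a p-value, though MACS 1.4.2 by default writes 10 times that value. This reading rests on the size of the scores alone. Ranks do not depend on it. The score orders peaks within a list but need not share a scale between lists. The 30 leading peaks of the unsilenced lists scored between 72.11 and 704.13 and stood within the first 2.73% of their lists by rank. The 4 leading sites of Canx, Calr, P4hb and Pdia6 had a peak in all 8 lists. Those of Pdia3 and Pdia4 had a peak in 7. Over the whole series, peaks of all 8 lists met in 53 of 28177 merged regions (0.188%), and these genes supplied 4 of those 53.

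Calnexin had the highest leading score of the group in all lists but that 48 h after hepatectomy. Its leading site lay on chromosome 11 between 50138575 and 50140128 (mm9), and its score was 355.17 in basal liver, 704.13 and 209.07 at 6 h and 48 h after hepatectomy, and 253.2 and 543.33 at 6 h and 48 h after the sham operation. The ranks were 3 of 2482, 9 of 22071, 6 of 7212, 34 of 23087 and 3 of 4622 in the same order. In the silenced livers the site scored 28.12 in basal liver (rank 6 of 177), 298.79 at 6 h (rank 4 of 4325) and 17.84 at 48 h (rank 9 of 102). The site thus stood among the first 9 of its list in all but 1 library, that 6 h after the sham operation. It was split into 2 peaks in the silenced 48 h list, the weaker with a score of 7.21.

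The Canx window had 2 further sites, which lay 34756 bp and 33296 bp from the leading one on the side of lower coordinates. The first, at 50104334 to 50104828, scored 18.1 in basal liver, 21.94 and 11.53 at 6 h and 48 h after hepatectomy, and 28.73 at 6 h after the sham operation. The second, at 50105753 to 50106304, scored 23.51 at 6 h after hepatectomy, 26.63 and 16.32 at 6 h and 48 h after the sham operation. Both were weak, ranking in the first 21.7% of a list at best, and neither had a peak in a silenced list.

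Calreticulin had its leading site on chromosome 8 between 87370396 and 87371477. It scored 169.54 in basal liver, 592.4 and 163.06 at 6 h and 48 h after hepatectomy, and 239.17 and 288.92 at 6 h and 48 h after the sham operation. Its ranks, 36, 32, 26, 42 and 35 in the same order, lay close together although the lists held between 2482 and 23087 peaks. After silencing the scores were 8.53 in basal liver (rank 114 of 177), 108.19 at 6 h (rank 74 of 4325) and 13.05 at 48 h (rank 20 of 102). In the silenced basal list 2 short peaks of 98 bp and 53 bp lay on this site, and the first gave the lowest of the 6 leading scores in that library.

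A pair of further Calr sites was absent from the basal lists, silenced and unsilenced. The site 15112 bp away (87355384 to 87356655) scored 64.7 and 18.71 at 6 h and 48 h after hepatectomy, 71.28 and 7.53 at 6 h and 48 h after the sham operation, and 5.87 in the silenced 6 h list. The site 6448 bp away (87363940 to 87364867 at 6 h after hepatectomy) scored 70.28 and 12.67 at 6 h and 48 h after hepatectomy and 21.13 at 6 h after the sham operation, and had no silenced peak. The files do not tie these sites to a gene.

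P4hb, the classical isomerase, had the most sites, 6 in a window of 27000 bp. The leading site on chromosome 11 (120433900 to 120435362) scored 256.42 in basal liver, 526.4 and 225.5 at 6 h and 48 h after hepatectomy, and 219.36 and 346.86 at 6 h and 48 h after the sham operation. At 48 h after hepatectomy it was the highest-scoring peak of the whole list of 7212. The silenced livers gave 13.44 in basal liver (rank 42 of 177), 151.13 at 6 h (rank 42 of 4325) and 10.03 at 48 h (rank 41 of 102), where it was split into 2 peaks.

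A second strong P4hb site lay 2122 bp away, between 120432178 and 120433035. In basal liver it scored 29.91 and ranked 361 of 2482, far below the leading site of the same window. It scored 398.9 (rank 116) and 161.1 (rank 28) at 6 h and 48 h after hepatectomy, and 163.29 (rank 194) and 102.2 (rank 137) at 6 h and 48 h after the sham operation. Expressed as a share of the list, its rank was 14.5% in basal liver and between 0.388% and 2.96% in the 4 operated livers, but lists of unlike length and unknown depth do not make this a measured change. The silenced scores were 8.53 in basal liver and 82.84 at 6 h, and the silenced 48 h list had no peak there.

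The other 4 P4hb sites were found after surgery but in neither basal list nor any silenced list. Those at 120416089 to 120416791 and 120439333 to 120440010 had a peak in 3 lists each. The first scored 50.28 and 11.21 at 6 h and 48 h after hepatectomy and 21.89 at 6 h after the sham operation. The second scored 37.59 at 6 h after hepatectomy, and 36.82 and 19.27 at 6 h and 48 h after the sham operation. The remaining 2 sites were found in both unsilenced 6 h lists alone, with scores between 8.63 and 19.37. Over the series, 31% of merged regions had this pattern of both unsilenced 6 h lists and no other.

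Pdia3, the partner of the lectin chaperones, had a leading site on chromosome 2 between 121238903 and 121240456. It scored 134.25 in basal liver, 372.69 and 72.11 at 6 h and 48 h after hepatectomy, and 137.24 and 257.91 at 6 h and 48 h after the sham operation. The ranks were 54, 137, 197, 280 and 46 in the same order. In the silenced livers it scored 16.92 in basal liver (rank 25 of 177) and 49.89 at 6 h (rank 289 of 4325), and no peak was called at 48 h.

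The second Pdia3 site, 35217 bp away, was cut by the edge of the window. Peaks with midpoints inside scored 301.25 and 48.67 at 6 h and 48 h after hepatectomy, 121.89 at 6 h after the sham operation and 39.75 in the silenced 6 h list. The peaks of basal liver (score 56.77) and of the 48 h sham liver (score 98.84) on this site had midpoints 28 bp and 42 bp beyond the edge, while that of the 48 h hepatectomy liver lay 40 bp inside it. With these 2 peaks counted, the site had a peak in all 5 unsilenced lists. Its absence from the basal count above is therefore a matter of the window. At the other window edges the nearest peak outside lay at least 806 bp away.

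Pdia4 had 2 strong sites 25119 bp apart, and which of them scored higher differed between libraries. The leading site on chromosome 6 (47763038 to 47764293) scored 125.89 in basal liver, 383.29 and 92.08 at 6 h and 48 h after hepatectomy, and 176.9 and 188.52 at 6 h and 48 h after the sham operation. The other site (47738059 to 47739163) scored 97.03, 288.93, 130.41, 178.79 and 100.52 in the same order. The other site was thus the higher one at 48 h after hepatectomy and, by a small margin, at 6 h after the sham operation. It was also the higher in the silenced 6 h list, with 46.95 against 32.84, whereas in the silenced basal list the leading site had 10.11 against 8.53. Neither had a peak in the silenced 48 h list.

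The remaining Pdia4 sites were weak. That at 47760233 to 47760594 scored 14.94 and 11.53 at 6 h and 48 h after hepatectomy and had no sham peak. That at 47769560 to 47769818, with a score of 6.86 at 6 h after hepatectomy, was the only one of the 19 sites found in a single list. Of all merged regions, 37.6% were found in a single list.

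Pdia6 had 1 site and no other peak in its window of 37000 bp. The site on chromosome 12 (17272830 to 17274099) scored 171.7 in basal liver, 457.18 and 119.2 at 6 h and 48 h after hepatectomy, and 221.29 and 242.69 at 6 h and 48 h after the sham operation. The ranks were 35, 80, 78, 61 and 49 in the same order. In the silenced livers it scored 24.28 in basal liver (rank 10 of 177), 131.1 at 6 h (rank 58 of 4325) and 10.03 at 48 h (rank 41 of 102). The nearest peak outside the window was 55196 bp beyond its right edge.

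**Figure D2:**
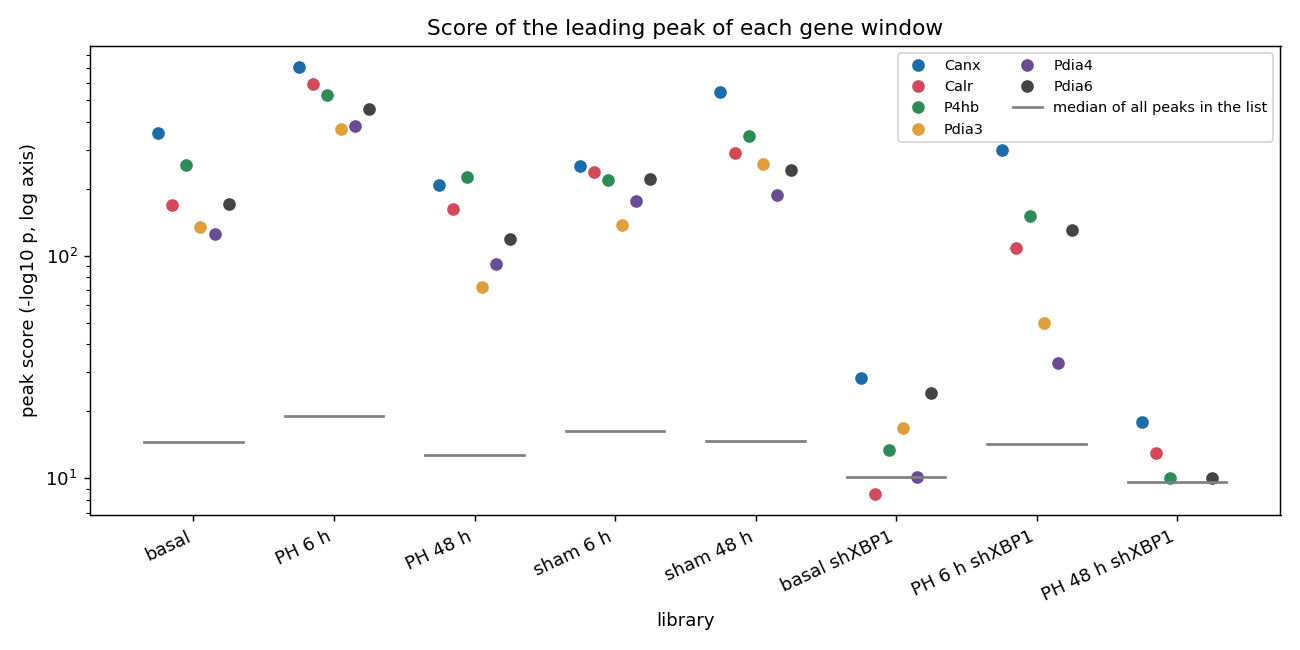
Score of the leading peak of each gene (points, taken as −log10 p, log axis) in each library. The grey line is the median score of all peaks of the library. Scores compare genes within a library and not libraries with each other. Canx is highest in all libraries but that 48 h after hepatectomy, where P4hb is, and in the silenced basal library Calr lies below the median of 10.11 and Pdia4 on it.

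Within a library, the order of the leading scores was similar but not fixed. Canx came first in 7 of the 8 lists and second to P4hb in the list 48 h after hepatectomy. This order rests on the score as deposited. With the score divided by peak width, the best peak anywhere in each window was ranked, on a leading site or not. The best Canx peak then came first in 3 lists and behind another gene in 5. In the list 6 h after the sham operation it ranked 240, against 22 for P4hb. That P4hb peak lay on its second site (163.29 over 601 bp). The leading peaks there scored 219.36 over 1246 bp for P4hb and 253.2 over 1425 bp for Canx. Leading peaks alone were not ranked by score over width. Pdia3 and Pdia4 had the 2 lowest leading scores in 5 lists, namely those of basal liver, 6 h and 48 h after hepatectomy, 6 h after the sham operation and the silenced liver at 6 h. At 48 h after hepatectomy this held for the leading sites only. The other Pdia4 site scored 130.41 there, above 119.2 for Pdia6. In the silenced 48 h list Pdia3 and Pdia4 were the 2 genes with no peak. The exceptions were the 48 h sham list, where Pdia3 was number 4, and the silenced basal list, where it was number 3. With 1 library per condition it is not known which neighbours in this order differ beyond the spread between animals.

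The leading peaks were also wide. In the unsilenced lists they spanned 567 bp to 1554 bp, while the median of all peaks in these lists lay between 290 bp and 429 bp. Leading peaks are high-scoring, and widths of other peaks of like rank were not compared. The width is therefore not shown to be particular to these genes. The widest was that of Pdia3 at 6 h after hepatectomy. In the silenced 6 h list the leading peaks spanned 526 bp to 951 bp (median of all peaks 333 bp). In the silenced basal list the peaks of Canx and Pdia6 spanned 497 bp and 439 bp, that of P4hb 228 bp, and those of Calr, Pdia3 and Pdia4 between 76 bp and 98 bp (median of all peaks 103 bp). The Pdia3 site was split there, and its second peak, with a score of 14.96, spanned 271 bp. In the silenced 48 h list the 4 leading peaks spanned 131 bp to 218 bp (median of all peaks 94 bp). Over the 4 leading sites with a peak in all 8 lists, the highest-scoring peaks of the lists had midpoints within 147 bp to 347 bp of each other, with a median of 222 bp. Over all 53 regions found in all 8 lists the median was 199 bp.

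**Figure D3:**
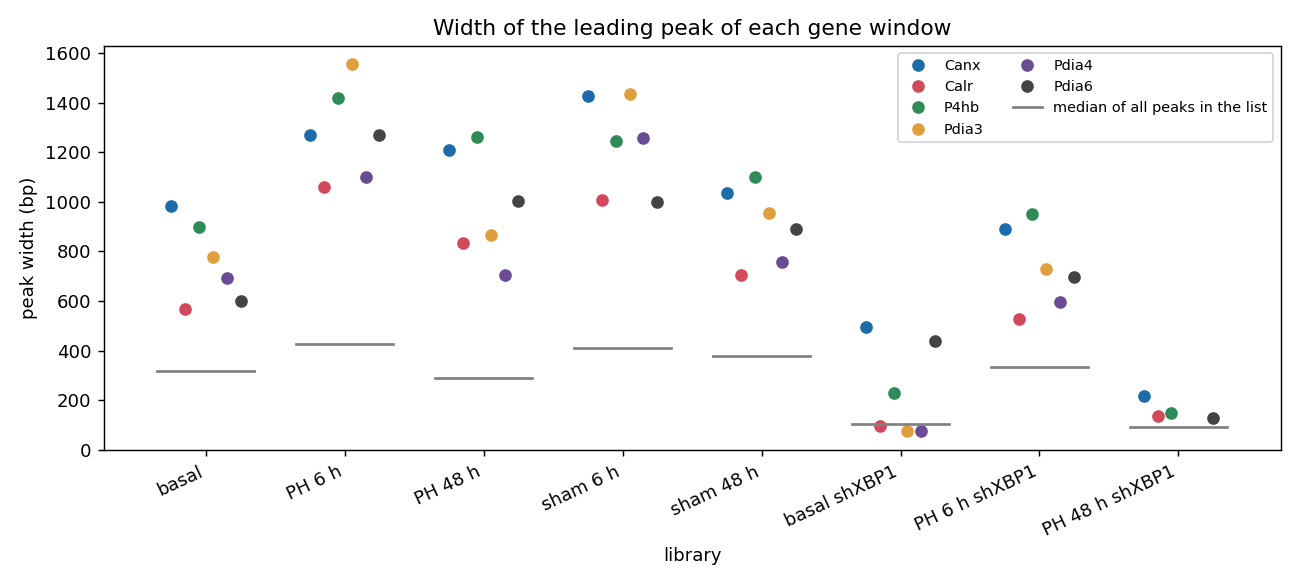
Width of the leading peak of each gene in bp (points) by library, with the median width of all peaks of the library as a grey line. The line is not matched for score. In the unsilenced libraries and the silenced 6 h library all 6 points lie above the line, and in the silenced basal library those of Calr, Pdia3 and Pdia4 fall to or below 98 bp.

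The silenced livers show which of these sites were still called when XBP1 had been targeted. In basal liver 8 of the 9 peaks (88.9%, exact binomial 95% interval 51.8 to 99.7%) overlapped a peak of the silenced list. The share was 4.75% over all basal peaks and 39.4% over the highest 10% of that list by score, which held 7 of the 9. The count fell to 5 among peaks that scored 10 or more and to 2 where 50% or more of each peak had to overlap. The peak without a counterpart was the weak Canx peak with a score of 18.1. At 6 h after hepatectomy 10 of 19 peaks (52.6%, 28.9 to 75.6%) had a counterpart, against 18.9% over all peaks and 87.6% over the highest 10%. The count fell to 6 under the 50% overlap. All 9 of the peaks in the highest 10% had one, and the 9 peaks without one scored between 6.86 and 70.28. At 48 h after hepatectomy 4 of 14 peaks (28.6%, 8.39 to 58.1%) had a counterpart, namely the leading sites of Canx, Calr, P4hb and Pdia6. The share was 0.915% over all peaks and 8.03% over the highest 10%, where 4 of the 9 had one. Under the 50% overlap none was left, and the unlike widths of silenced and unsilenced peaks lower these counts by construction. The highest-scoring peak without a counterpart was the second P4hb site, with a score of 161.1 and rank 28. These intervals cover counting error only, and peaks of 1 window share their neighbourhood.

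**Figure D4:**
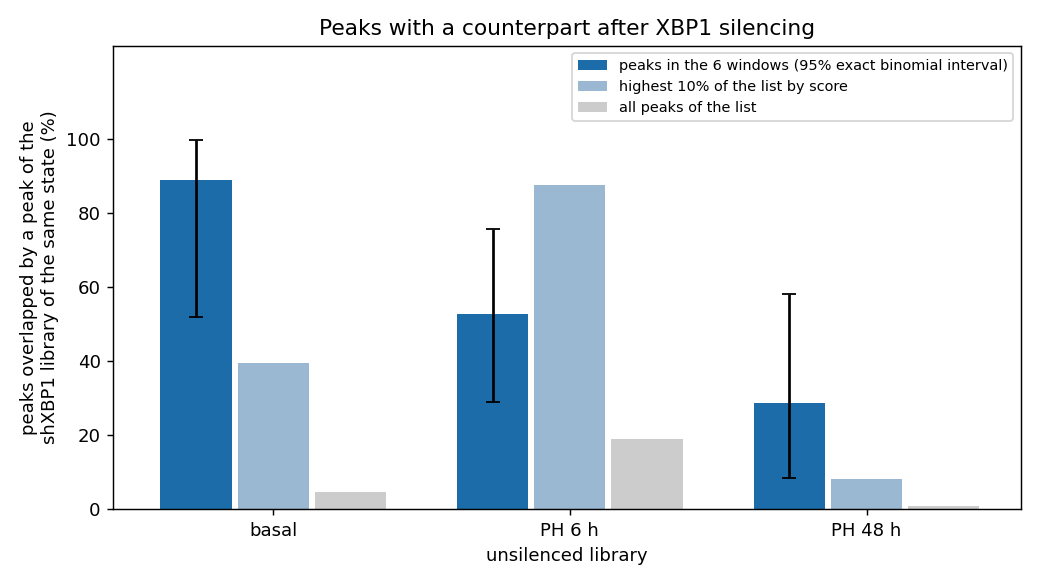
Percentage of peaks of each unsilenced library that overlapped a peak of the silenced library of the same state, for the peaks in the 6 windows (dark blue, with the exact binomial 95% interval), for the highest 10% of the list by score (light blue) and for all peaks (grey). The windows stand at 88.9% in basal liver, 52.6% at 6 h and 28.6% at 48 h after hepatectomy, above all peaks in each state and below the highest 10% at 6 h. Overlap is by 1 bp or more, and with 50% of each peak required the counts fall from 8 to 2, from 10 to 6 and from 4 to 0.

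In the opposite direction, every silenced peak in the windows lay on an unsilenced peak of the same state. This held for 10 of 10 in basal liver (89.3% of all silenced basal peaks), 10 of 10 at 6 h (98.2%) and 6 of 6 at 48 h (76.5%). The silenced basal and 48 h lists were short and their peaks narrow for the whole series, so lower depth, a different calling width and less XBP1 on chromatin cannot be told apart in them. The 6 windows, where some sites were split into 2 silenced peaks, made up 5.65% of the 177 silenced basal peaks and 5.88% of the 102 silenced 48 h peaks, against 0.363% of the basal and 0.194% of the 48 h hepatectomy peaks.

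At 6 h most hepatectomy and sham peaks overlapped each other, in these windows and in the whole lists. A sham peak overlapped 17 of the 19 hepatectomy peaks (89.5%, 66.9 to 98.7%), against 76.9% of all hepatectomy peaks. A hepatectomy peak overlapped 18 of 18 sham peaks (100%, 81.5 to 100%), against 74.1% of all sham peaks. Of the window peaks, 9 hepatectomy and 10 sham peaks were in the highest 10% of their lists. All peaks are thus not a matched comparison, and the intervals treat peaks as independent and give no test. The 2 hepatectomy peaks without a sham counterpart were the weak Pdia4 sites with scores of 14.94 and 6.86. At 48 h 10 of 14 hepatectomy peaks (71.4%, 41.9 to 91.6%) overlapped a sham peak (47.1% of all peaks), and the 4 that did not scored between 11.21 and 12.67. In the other direction 9 of 11 sham peaks had a hepatectomy counterpart (72.5% of all peaks), and the 2 without one, in the Canx and P4hb windows, scored 16.32 and 19.27. All 9 hepatectomy peaks in the highest 10% of the list had a sham counterpart at each time. The share over the whole highest 10% was not computed against sham, so this count is not shown to be particular to these genes.

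Against basal liver, the 6 h lists held the basal sites and further ones. All 9 basal peaks were found at 6 h after hepatectomy (98.3% of all basal peaks). Of the 19 peaks at 6 h after hepatectomy, 10 (52.6%, 28.9 to 75.6%) overlapped a basal peak, as did 10.9% of all peaks of that list. Those in the highest 10% of the list did in 9 of 9 cases, against 63.7% over the whole highest 10%. At 6 h after the sham operation 10 of 18 peaks overlapped a basal peak (10.5% of all peaks), with 9 of the 10 in the highest 10% of the list among them. The exception was the Calr site with a score of 71.28, at rank 1005 of 23087. For this sham list the share over the whole highest 10% was not computed. The peaks absent from basal liver scored at most 70.28 after hepatectomy and 71.28 after the sham operation, both in the Calr window.

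By 48 h part of these sites was no longer called. Of the 19 peaks at 6 h after hepatectomy, 14 (73.7%, 48.8 to 90.9%) overlapped a peak at 48 h, against 28.9% of all peaks, and the 5 that did not scored at most 37.59. Of the 18 peaks at 6 h after the sham operation, 12 (66.7%, 41 to 86.7%) overlapped a 48 h sham peak (19.4% of all peaks), and the other 6 scored at most 28.73. As in the whole lists, most 48 h peaks were also 6 h peaks. In the windows 14 of 14 hepatectomy peaks (91% of all peaks) and 11 of 11 sham peaks (97.7% of all peaks) overlapped a 6 h peak of the same operation. Of the 19 sites, 9 (6.6% of all merged regions had this pattern) carried a peak in all 5 unsilenced lists when the edge peaks of Pdia3 were counted, and 8 without them.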

How the data were processed

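The data were 8 lists of XBP1 peaks deposited by the authors, 1 per immunoprecipitated library, out of 9 samples. Bowtie2, MACS 1.4.2 and build mm9 are named in the submitters' processing notes. The settings and the use of the input are not given in these sources. The deposited score was read as −log10 p from the size of the scores. Between 19.7% and 63.1% of scores under 60 per list fell on the steps of −log10 Poisson tail probabilities for the best single mean. The share was 5.99% to 18.6% on a scale with steps 10 times as far apart. That scale has fewer steps under 60 for a score to match, so these shares cannot decide between the scales.

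A peak belonged to a gene where its midpoint lay in the gene's mm9 window. Sharing needed an overlap of 1 bp or more, and shared peaks were merged into sites. Ties took the best rank. Intervals are exact binomial (Clopper-Pearson). Tiles of 37333 bp ran along each chromosome up to its last peak. No test was made with 1 library per condition. No mm9 gene model was used, so sites are not assigned to promoters, exons or introns. All 6 genes were named, with sites in 3 or more lists given in full and the other 4 by ranges or values. The members, windows, motifs and lists were chosen with earlier results of these data known. Promoter letters came from RefSeq's table (GRCm38.p6). Overlap and motif counts were tested on simulated data. Python 3.11.15, NumPy 2.4.6, SciPy 1.17.1 and matplotlib 3.10.9 were used. Alternatives were other overlap rules, a score of at least 10, resized peaks, wider windows, a wider merging distance and other ranks.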

Additional observations from a re-analysis of the deposited data

How the results depend on the processing

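Counts of sites (18 to 19 in all, 9 in all 5 unsilenced lists, 3 to 4 in all 8 lists) and of peaks per list stayed within 1.5 times under each alternative run for them, with 1 exception. With a score of at least 10 required, the silenced basal list held 6 peaks in the windows instead of 10. The same requirement in both lists left 5 of the basal peaks with a silenced counterpart instead of 8. Requiring that 50% or more of each peak overlap moved 5 counts: basal peaks with a silenced counterpart went from 8 to 2, those 6 h after hepatectomy from 10 to 6, and those 48 h after hepatectomy from 4 to 0. Under the same rule the peaks 6 h after hepatectomy found in basal liver went from 10 to 6, and the 48 h hepatectomy peaks found at 6 h from 14 to 9. Peaks of unlike width lower these shares by construction. Midpoints within 250 bp and peaks resized to 500 bp moved no count beyond 1.5 times. Of 46 best ranks, 31 moved beyond 1.5 times when the score was divided by peak width, and none moved among peaks of 2 kb or less. Read depth is unknown, so a site not called in a short list may be below its detection limit.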
